A study of Mus musculus with 9 samples.

Results

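CpGs with a large difference in methylation between their own strands were examined in mouse embryonic stem cells (ESCs) by whole genome bisulfite sequencing (WGBS). A CpG was a member when the methylated share of the reads differed by at least 50 percentage points between the plus and the minus strand in at least 1 of 3 tables. It also needed at least 10 reads on each strand and at most 200 reads in all in every table. These limits left 455688 eligible CpGs, 3.31% of the 13749032 CpGs listed in all 3 tables, and 40035 of them, or 8.79%, were members. Because the strand difference itself chose the members, its size in the table that chose a CpG is a description, and tests were read only in the other tables.

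The study compared wild type (WT) cells with cells that lack *Dnmt3a* (*Dnmt3a* KO) or *Dnmt3b* (*Dnmt3b* KO), all of J1, an ESC line of strain 129S4/SvJae, grown without feeders on gelatin in medium with fetal bovine serum and LIF. For each genotype 3 libraries were made, 9 in all, and the authors merged them into 1 table of methylated and total reads by strand for each CpG. Each value below is therefore 1 pooled value per genotype, with no replicate error, and a p-value compares the reads of the strands within a pool. Whether each KO line is 1 clone is not given in the sources used here. Over *Dnmt3a* exons 18–19 the mean depth per reference CpG was 31.4 reads in WT, 0.308 in the *Dnmt3a* KO and 17.2 in the *Dnmt3b* KO. Over *Dnmt3b* exons 17–20 it was 27.2, 25.6 and 8.93 reads, so that reads remained over part of these exons in *Dnmt3b* KO ESCs. Median depth over the eligible CpGs was 36 reads in WT, 34 in the *Dnmt3a* KO and 35 in the *Dnmt3b* KO. Since the WT table ends within chromosome 4, the rest of that chromosome and chromosomes 5 to 9, X and Y are left out here.

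A CpG reads the same on both strands, so each CpG carries a cytosine on the plus and on the minus strand. Replication pairs a methylated parental strand with an unmethylated new strand, and DNMT1, guided by UHRF1, copies the mark onto the new strand. A CpG that keeps the mark on one strand is called hemimethylated, and DNMT3A and DNMT3B are the enzymes that methylate CpGs without a template. In bisulfite sequencing an unmethylated C is read as T, so a read of the sequence TG from elsewhere in the genome looks like an unmethylated CG on that strand.

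Some of the sequences that the results turn on are shown first, from the mm9 reference in plus strand orientation. The CpGs at chr10:36907055-36907056 and chr10:83179043-83179044 were low on the plus strand in all 3 tables. Beside each is the most frequent genomic sequence that equals it once every C is written as T and that has TG in place of its CG. Capitals mark the CG or TG. The windows are chr10:36907031-36907080 and chr10:83179019-83179068.
chr10 CpG a: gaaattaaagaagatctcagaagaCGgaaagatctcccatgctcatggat
TG copy of a: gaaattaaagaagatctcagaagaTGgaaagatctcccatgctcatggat
chr10 CpG b: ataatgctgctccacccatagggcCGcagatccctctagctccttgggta
TG copy of b: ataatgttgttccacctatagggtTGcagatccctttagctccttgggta

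The 50 bases around CpG a matched 13250 genome sites in this 3-letter form. Of these, 13213 had TG and 37 had CG, and 11669 were identical to the TG sequence printed above. CpG b matched 8741 sites, 8721 with TG and 20 with CG, and the printed TG sequence was found 6232 times.

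A set of 3 CpGs was low on one strand in all 3 tables although the 50 bases around them matched no other site on either strand. They were chosen after their values were seen and are shown to set them apart from the copied ones, and the chr10 CpG is also among the 8 with the largest difference described below. They lie at chr10:11672944-11672945, chr11:13411095-13411096 and chr13:113368929-113368930, the last in an intron of *Il31ra*, which encodes a subunit of the interleukin 31 receptor. The windows are chr10:11672914-11672975, chr11:13411065-13411126 and chr13:113368899-113368960.
chr10 unique CpG: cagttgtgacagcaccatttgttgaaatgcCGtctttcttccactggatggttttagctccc
chr11 unique CpG: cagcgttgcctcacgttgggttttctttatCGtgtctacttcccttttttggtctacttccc
*Il31ra* intron CpG: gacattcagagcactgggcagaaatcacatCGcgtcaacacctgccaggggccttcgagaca

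The 3 stretches with the most neighbouring members on the same strand, with 9, 7 and 6 CpGs, lay on chromosome 11. The first, chr11:34123245-34123508, is 3570 bp from *Dock2*, the next, chr11:105893593-105893649, is in an intron of *Kcnh6*, and the last, chr11:16545115-16545164, is between genes. Capitals mark the CpGs that passed the depth limits.
Run near *Dock2*: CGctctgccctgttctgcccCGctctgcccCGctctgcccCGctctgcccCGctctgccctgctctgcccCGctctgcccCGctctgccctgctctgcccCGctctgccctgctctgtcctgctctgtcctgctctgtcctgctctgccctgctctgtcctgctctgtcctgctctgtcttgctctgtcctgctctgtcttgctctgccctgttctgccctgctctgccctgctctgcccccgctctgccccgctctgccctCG
Run in *Kcnh6*: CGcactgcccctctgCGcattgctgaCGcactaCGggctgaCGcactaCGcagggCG
Intergenic chr11 run: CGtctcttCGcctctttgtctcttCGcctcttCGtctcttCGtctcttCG

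CpGs that passed the limit in 1 table only are shown by an example for each genotype. They lie in an intron of *Gcnt2* for WT, in an exon of *Rapgef4* for *Dnmt3a* KO and in an exon of *D2hgdh* for *Dnmt3b* KO ESCs. Their windows are chr13:41047070-41047131, chr2:72090997-72091058 and chr1:95723053-95723114, and none of them matched a second site.
*Gcnt2* CpG: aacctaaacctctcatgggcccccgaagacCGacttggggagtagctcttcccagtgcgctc
*Rapgef4* CpG: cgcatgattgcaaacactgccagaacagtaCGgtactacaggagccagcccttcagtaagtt
*D2hgdh* CpG: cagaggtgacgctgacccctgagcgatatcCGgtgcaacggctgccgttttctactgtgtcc

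To see how many members reads drawn at random from strands of equal level would give, the exact hypergeometric probability of a difference of at least 50 points was summed over the eligible CpGs. In WT 6233 CpGs, 1.37%, reached the limit, where counting gave 142. In *Dnmt3a* KO ESCs 26528 CpGs, 5.82%, reached it, where counting gave 1493. In *Dnmt3b* KO ESCs 9652 CpGs, 2.12%, reached it, where counting gave 370. The observed numbers were thus 43.8, 17.8 and 26.1 times the counting expectation in the same order. The expectation assumes independent reads, whereas the variance of the plus strand depth was 3.44, 3.01 and 3 times the binomial variance, in the same order. The part of this in the excess was not tested.

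The excess was present at every depth. Among CpGs whose less covered strand had 10 to 12 reads, 1.86% reached the limit in WT, 7.59% in the *Dnmt3a* KO and 2.89% in the *Dnmt3b* KO, against 0.0661%, 0.568% and 0.156% from counting. At 31 to 100 reads the shares were 0.85%, 0.591% and 0.938%, against 2.82e-05%, 0.000251% and 6.37e-05%. The high share of *Dnmt3a* KO ESCs at low depth was therefore not seen in the deepest class, which held 9055, 5921 and 7144 CpGs in the 3 tables.

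*Dnmt3a* KO ESCs had the most members and also the most CpGs of intermediate level, where a large strand difference is possible. The mean level of the eligible CpGs was 89% in WT, 57.5% in the *Dnmt3a* KO and 82.6% in the *Dnmt3b* KO. CpGs with a level of 40% to 60% over both strands made up 1.62% of the eligible CpGs in WT, 24.5% in the *Dnmt3a* KO and 4.37% in the *Dnmt3b* KO. Within this class the order of the tables was turned, as a description only, since the level and the difference come from the same reads and a CpG with unlike strands has an intermediate level by construction. There 18.9% of the CpGs reached the limit in WT, 12.7% in *Dnmt3b* KO and 10.8% in *Dnmt3a* KO ESCs. The same order was found in the classes from 20% to 40% (11.1%, 8.55% and 7.52%) and from 60% to 80% (9.56%, 7.16% and 6.3%). It did not hold from 80% to 100%, the class of 86.6% of the WT, 72.9% of the *Dnmt3b* KO and 19.4% of the *Dnmt3a* KO CpGs, where 0.165%, 0.21% and 0.361% reached the limit. Below 20% the shares were 0.433%, 0.423% and 0.341%.

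**Figure D1:**
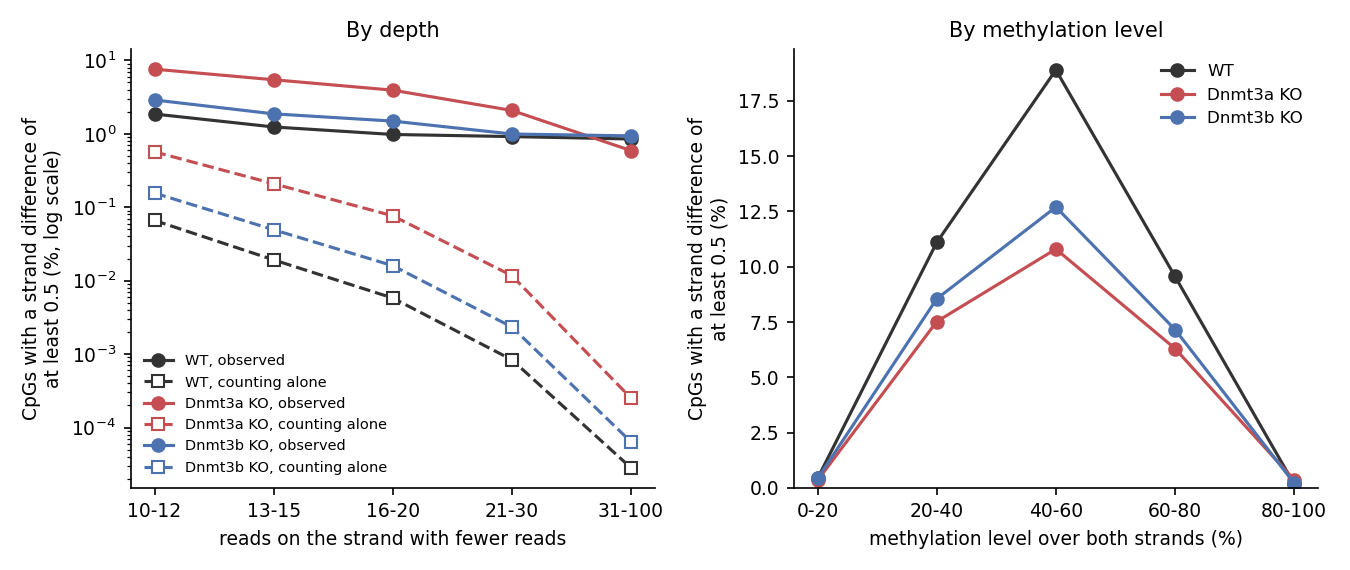
Left, percent of eligible CpGs with a strand difference of at least 0.5 against the reads on the less covered strand, on a log axis, observed (filled) and from counting alone (open) in the 3 tables. Right, the same percent against the methylation level over both strands, where WT is highest at 40% to 60% with 18.9%.

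The members were in most cases methylated on the higher strand and partly methylated on the lower strand. In WT the median level was 100% on the higher and 36.8% on the lower strand. In the *Dnmt3a* KO, the medians were 85.7% and 25%, and in the *Dnmt3b* KO 95.8% and 35.7%. The lower strand had no methylated read at 274 members in WT, 2641 in the *Dnmt3a* KO and 415 in the *Dnmt3b* KO, so that most members were unequally methylated and not methylated on one strand alone. All reads of the higher strand methylated and none of the lower was found at 14 CpGs in WT, 40 in the *Dnmt3a* KO and 21 in the *Dnmt3b* KO. The plus strand was the higher one in 45.7% of the WT members, 48.9% of the *Dnmt3a* KO members and 46.7% of the *Dnmt3b* KO members. Of all members, 16416 lay within 5 points of the limit, the lowest at 50 points, and 16629 eligible CpGs lay within 5 points below it, the highest at 49.95 points.

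Most members passed the limit in 1 table only. There were 37987 such CpGs, 94.9% of the members, with 4863 in WT, 25099 in the *Dnmt3a* KO and 8025 in the *Dnmt3b* KO. A further 1718 passed in exactly 2 tables. All 3 tables were passed by 330 CpGs, 326 of them with the same strand higher throughout and 4 with mixed strands. Of all eligible CpGs, 1.37% passed in WT, 5.82% in the *Dnmt3a* KO and 2.12% in the *Dnmt3b* KO. With shares this low, most members would pass in 1 table only even if the tables were unrelated. The overlap of unrelated tables was not computed, so the 94.9% is a description.

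To learn whether a strand difference returned in reads that had not chosen the CpG, WT members were tested in the KO tables with a two-sided Fisher exact test on each CpG, adjusted by the Benjamini-Hochberg procedure over all eligible CpGs. An adjusted p below 0.05 counted as a call. Like the counting expectation, the test assumes independent reads, and how far this holds in the pooled libraries was not tested. Of the 6233 WT members, 730 were called on the same strand in the *Dnmt3b* KO, 11.7% (95% Wilson interval 10.9 to 12.5), and 26 on the opposite strand, 0.417%. Of all eligible CpGs, 1.09% were called there on either strand. In *Dnmt3a* KO ESCs 586 WT members, 9.4% (8.7 to 10.2), were called on the same strand and 64 on the opposite, where 3.54% of all eligible CpGs were called. The intervals cover counting error only, and the shares depended on the limits. With at least 5 reads on each strand they were 1.68% in the *Dnmt3b* KO and 1.72% in the *Dnmt3a* KO, and with at least 15 reads 46.1% and 35.6%, beside 0.348% and 1.36%, and 2.88% and 4.48%, of all CpGs eligible at those limits. Same strand calls thus outnumbered opposite ones in both KO tables. The strand that was higher in WT was also higher for 59.8% of the members in *Dnmt3b* KO and 56.4% in *Dnmt3a* KO ESCs, and lower for 32.3% and 33.9%.

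**Figure D2:**
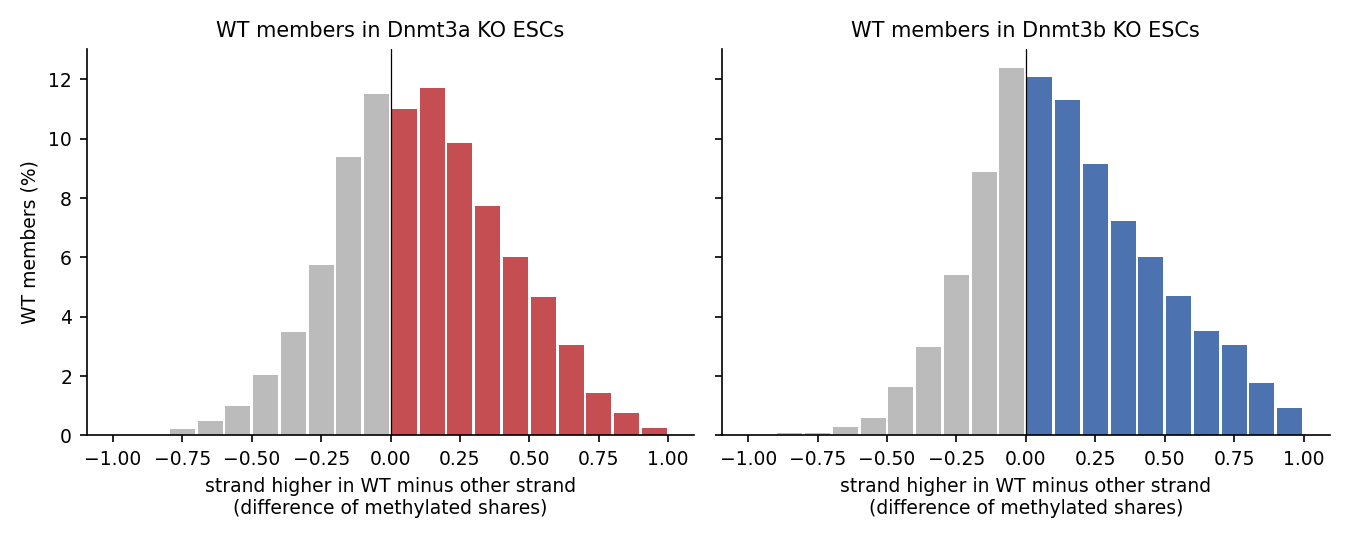
Difference between the strand that was higher in WT and the other strand, as the difference of methylated shares, for the 6233 WT members in *Dnmt3a* KO (left) and *Dnmt3b* KO (right) ESCs, in percent of the members per bin of 0.1, with CpGs of equal strands left out (604 and 492). Colored bars, the side that was higher in WT, hold 56.4% and 59.8% of the members.

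The members chosen by the KO tables were read in the other tables in the same way. Of the *Dnmt3b* KO members, 739, or 7.66%, were called on the same strand in WT and 35 on the opposite, beside 0.938% of all eligible CpGs. In the *Dnmt3a* KO, 629 of them, 6.52%, were called on the same strand and 145 on the opposite, beside 3.54%. Of the *Dnmt3a* KO members, 538, or 2.03%, were called on the same strand in WT and 56 on the opposite, beside 0.938%. In *Dnmt3b* KO ESCs the numbers were 515, 1.94%, and 89, beside 1.09%. Differences between these shares were not tested.

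The return of the strand difference went along with the copy number of the sequence. For each strand, the 50 bases around the CpG were compared with the whole genome after every C was written as T, which is what bisulfite leaves of unmethylated DNA. Of the eligible CpGs, 21.7% matched a second site for at least 1 strand. After these CpGs were left out, 3.94% of the remaining 4472 WT members were called on the same strand in the *Dnmt3b* KO and 0.514% on the opposite, beside 0.941% of all such CpGs. In *Dnmt3a* KO ESCs 3.56% were called on the same strand and 1.27% on the opposite, which is 159 and 57 CpGs, beside 3.82% of all such CpGs called on either strand. Of the 7817 *Dnmt3b* KO members without a second site, 2.16% were called on the same strand in WT and 0.422% on the opposite, beside 0.667% on either strand, and 3.16% and 1.7% in the *Dnmt3a* KO, beside 3.82%. Of the 23684 such *Dnmt3a* KO members, 0.587% and 0.207% were called in WT, beside 0.667%, and 0.73% and 0.346% in the *Dnmt3b* KO, beside 0.941%. Same strand calls thus still outnumbered opposite ones in every reading. The shares of all such CpGs count calls in both directions, so they are not a like background for a same strand share alone. CpGs with and without a second site were not matched for depth, on which the called shares also depended. Across all CpGs with a copy, the strand differences of WT and *Dnmt3b* KO ESCs had a Pearson correlation of 0.339 over 99081 CpGs, and across CpGs without a copy 0.0351 over 356607 CpGs. These are descriptions across CpGs, which share libraries and reads.

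The 326 CpGs that passed on the same strand in all 3 tables were highly methylated on the higher strand and had low methylation on the lower. In WT the median was 95.8% on the higher and 18.8% on the lower strand. In the *Dnmt3a* KO, it was 79.4% and 10.3%, and in the *Dnmt3b* KO 92.9% and 16.7%. Both strands were thus lowest in *Dnmt3a* KO ESCs, while the median difference was 72.5, 63.9 and 71.5 points. The lower strand had more reads than the higher one, with medians of 31 and 19 in WT, 29.5 and 17 in the *Dnmt3a* KO and 31 and 18 in the *Dnmt3b* KO. The minus strand was the higher one at 258 of the 326 CpGs and the plus strand at 68.

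**Figure D3:**
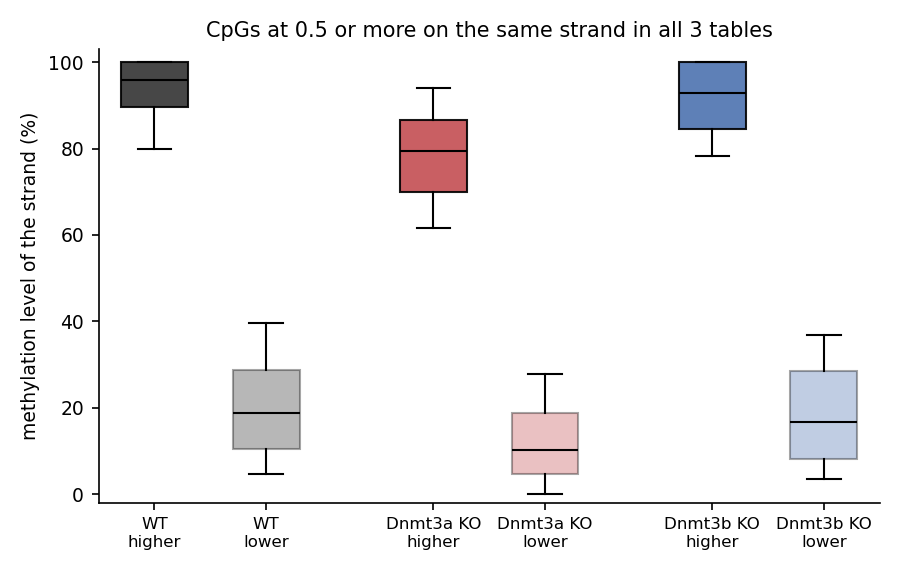
Methylation level in percent on the higher and on the lower strand of the 326 CpGs in each table, as median, quartiles (box) and 10th to 90th percentile (whiskers). The medians of the higher strand are 95.8%, 79.4% and 92.9%, and those of the lower strand 18.8%, 10.3% and 16.7%.

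These 326 CpGs lay for the most part in copied sequence. A second matching site existed for 265, or 81.3%, of them, compared with 20.2% of the WT only, 9.07% of the *Dnmt3a* KO only and 13.5% of the *Dnmt3b* KO only members and 22.6% of the eligible CpGs under the limit in all tables. The lower strand had more matching sites than the higher at 203 CpGs, fewer at 47 and the same number at 76. Its median number of matching sites, the CpG itself included, was 26.5, against 3 for the higher strand. At least 1 of the sites had TG in place of the CG for the lower strand of 223 CpGs, 68.4%, and for the higher strand of 126, 38.7%. Only the lower strand had such a TG copy at 111 CpGs and only the higher strand at 14, and 89 CpGs had none. How far TG copies account for the strand difference was not tested, and the aligner was run with its default settings, whose placing of reads that match several sites is not spelled out in the sources used here.

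**Figure D4:**
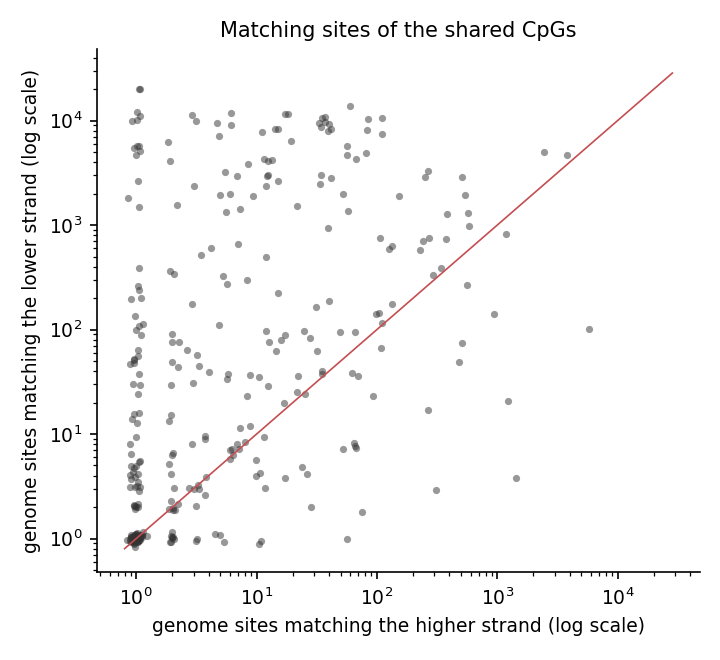
Number of genome sites that match the 50 bases around each of the 326 CpGs in 3-letter form, for the lower strand (y axis) against the higher strand (x axis), both on log axes, with points shifted slightly to separate them. The line marks equal numbers, and 203 points lie above it and 47 below.

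The same link was seen when CpGs were chosen by sequence and not by methylation. Of the 15359 eligible CpGs with a TG copy for the plus strand only, 440 were called with the minus strand higher in WT and 73 with the plus strand higher. Of the 14004 with a TG copy for the minus strand only, 65 were called with the minus strand higher and 251 with the plus strand higher. The directions were thus opposite in the 2 classes. In *Dnmt3a* KO ESCs the numbers were 413 and 153 for the first class and 145 and 207 for the second, and in the *Dnmt3b* KO 400 and 45, and 68 and 183. The 207 calls in *Dnmt3a* KO ESCs were 1.48% of their class. This is below the 1.83% called with the plus strand higher there among CpGs without a TG copy, so only the balance between strands differed. Over all eligible CpGs, 0.523% were called with the minus and 0.415% with the plus strand higher in WT, 1.84% and 1.71% in *Dnmt3a* KO ESCs and 0.608% and 0.486% in *Dnmt3b* KO ESCs. The 39835 CpGs with TG copies for both strands also leaned to the minus strand. Of these, 510 were called with the minus and 220 with the plus strand higher in WT. In *Dnmt3a* KO ESCs it was 609 and 355, and in *Dnmt3b* KO ESCs 453 and 191. Whether this lean goes along with the number of TG copies on each strand was not tested. Without a TG copy the calls were even, with 1367 on the minus and 1349 on the plus strand in WT. The CpGs without a TG copy were 84.8% of the eligible ones and held 35951 of the 40035 members. Members were 9.3% of them, a higher share than in the classes with a TG copy. It was 7.72% for the plus strand only, 5.75% for the minus strand only and 5.25% for both strands.

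Among the CpGs with the largest difference in all 3 tables, some had TG copies for the lower strand and others had none there. At CpG a, 1 of 99 plus strand reads was methylated in WT, 1 of 96 in the *Dnmt3a* KO and 1 of 102 in the *Dnmt3b* KO. On its minus strand 12 of 12, 17 of 20 and 23 of 24 reads were methylated. The levels of the strands were far apart in every table, and the plus strand was the deeper one in each. At CpG b, methylated reads were 3 of 96, 5 of 85 and 6 of 100 on the plus strand and 26 of 26, 16 of 16 and 26 of 27 on the minus strand. The minus strand matched 60 sites for CpG a, 15 of them with TG, and only the CpG itself for CpG b, both fewer than the plus strand.

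A CpG at chr11:49203112-49203113 was methylated in 4 of 143, 5 of 154 and 0 of 154 plus strand reads and in 21 of 23, 15 of 16 and 24 of 27 minus strand reads, and 4 of the 5 sites that match its plus strand had TG. At chr11:97930084-97930085, 13784 bp from *Fbxl20*, the plus strand was the higher one, with 16 of 16, 13 of 13 and 10 of 10 reads methylated, against 1 of 21, 0 of 19 and 0 of 15 on the minus strand. There 3 of 12 sites that match the minus strand had TG. At chr12:20111162-20111163 the higher strand was the one with a copy. Its plus strand matched no other site and had 1 of 19, 0 of 10 and 1 of 11 reads methylated. Its minus strand matched 2 sites, 1 of them with TG, and had 16 of 17, 13 of 13 and 10 of 11 reads methylated. Over the 8 CpGs with the largest smallest difference, the difference was 86.3 to 99 points in WT, 82.8 to 100 in the *Dnmt3a* KO and 81.8 to 100 in *Dnmt3b* KO ESCs. All 8 were intergenic and 5 of them were on chromosome 10.

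Some of the shared CpGs had no second site. There were 61 of these among the 326, with a median difference of 71.4 points in WT, 63.5 in the *Dnmt3a* KO and 74.7 in the *Dnmt3b* KO, beside 72.7, 64.3 and 71.2 for the 265 with one, where the limit chose both. They had medians of 96.4% and 18.2% on the higher and lower strand in WT, 76.5% and 11.8% in the *Dnmt3a* KO and 95.5% and 19.2% in *Dnmt3b* KO ESCs. At the unique chr11 CpG, 2 of 54, 1 of 64 and 3 of 66 plus strand reads and 13 of 13, 16 of 20 and 13 of 13 minus strand reads were methylated. At the *Il31ra* CpG the plus strand was higher, with 9 of 10, 11 of 13 and 19 of 22 reads methylated, against 6 of 50, 4 of 55 and 5 of 43 on the minus strand. The deeper strand was the lower one at both. At the unique chr10 CpG, 10 of 73, 4 of 39 and 4 of 57 plus strand reads were methylated, and 10 of 10, 14 of 15 and 12 of 12 minus strand reads. Copies with a mismatch, or sequence absent from the reference, were not searched for.

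Members that passed in 1 table only differed less between the strands in the other tables, where they were under the limit by definition, and on average leaned little to either strand. The median size of the difference in WT only CpGs was 14.3 points in the *Dnmt3a* KO and 14.4 in the *Dnmt3b* KO. It was 6.52 points in WT and 9.85 in the *Dnmt3b* KO for the *Dnmt3a* KO only CpGs, and 9.52 in WT and 15.6 in the *Dnmt3a* KO for the *Dnmt3b* KO only CpGs. Eligible CpGs under the limit in all tables had 6.25 points in WT, 14.6 in the *Dnmt3a* KO and 9.09 in *Dnmt3b* KO ESCs. For the 4863 WT only CpGs, the mean level was 93.2% on the higher and 34.9% on the lower strand in WT. The same strands had 41.4% and 37.8% in the *Dnmt3a* KO and 69% and 64.1% in *Dnmt3b* KO ESCs. These CpGs had a median level of 40% in the *Dnmt3a* KO and 75% in the *Dnmt3b* KO, below the 61.7% and 89.1% of all eligible CpGs. The *Dnmt3a* KO only CpGs had 84.1% and 24.4% in *Dnmt3a* KO ESCs, and 93% and 92.1% in WT. In WT they were thus methylated on both strands on average. The *Dnmt3b* KO only CpGs had 91.6% and 33.5% in *Dnmt3b* KO ESCs, 87.7% and 85% in WT and 46.2% and 44.3% in *Dnmt3a* KO ESCs.

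The examples in 1 table show complete or nearly complete strand differences at modest depth. At the *Gcnt2* CpG, in a gene for a glycosyltransferase of the I blood group antigen, 10 of 10 plus strand and 0 of 11 minus strand reads were methylated in WT. In the *Dnmt3a* KO, it was 0 of 14 and 0 of 15, and in the *Dnmt3b* KO 1 of 11 and 1 of 17. At a CpG 23445 bp from *Ep300*, 26 of 27 plus and 1 of 19 minus strand reads were methylated in WT, and no read in either KO. Both CpGs were thus methylated in WT almost only on the plus strand, and in the KOs on few reads or none. The third WT example, in an intron of *Orc3*, which encodes a subunit of the origin recognition complex, did not share this. It had 1 of 12 plus and 12 of 12 minus strand reads methylated in WT, 4 of 11 and 3 of 11 in the *Dnmt3a* KO and 9 of 12 and 21 of 25 in the *Dnmt3b* KO. Its plus strand matched 22 sites, 15 of them with TG, and its minus strand 7, 3 of them with TG. The *Gcnt2* CpG and the CpG near *Ep300* matched no second site. At the *Rapgef4* CpG, in the gene of a cAMP-activated exchange factor for Rap GTPases, 10 of 10 and 0 of 16 reads were methylated in *Dnmt3a* KO ESCs, whereas WT had 17 of 17 and 44 of 45. At the *D2hgdh* CpG, in the gene of D-2-hydroxyglutarate dehydrogenase, 0 of 19 and 12 of 12 reads were methylated in the *Dnmt3b* KO, while WT had 10 of 18 and 7 of 13. Of the members, 709 in WT, 8072 in the *Dnmt3a* KO and 1344 in the *Dnmt3b* KO were within 10 points in both other tables. The 3 of each with the largest difference had 91 to 100 points in WT, 100 in the *Dnmt3a* KO and 93.3 to 100 in the *Dnmt3b* KO. These counts follow in part from the tables they were read in. Of the eligible CpGs under the limit in all tables, 65.6% were within 10 points in WT. In *Dnmt3a* KO ESCs it was 37.4% and in *Dnmt3b* KO ESCs 55%. For *Dnmt3a* KO only CpGs it was 64.4% in WT and 52.2% in the *Dnmt3b* KO. For WT only CpGs it was 39.2% in the *Dnmt3a* KO and 39.8% in the *Dnmt3b* KO.

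Neighbouring CpGs leaned to the same strand. When the nearest eligible CpG lay within 2 to 10 bp of a member, the same strand was higher there in 65.3% and the other in 21.7% of 1016 cases in WT. In *Dnmt3a* KO ESCs it was 79.6% and 18.6% of 4387, and in the *Dnmt3b* KO 66.1% and 23.7% of 1429. Beyond 200 bp and up to 1000 bp the shares were 40.6% and 36.7%, 47.9% and 49.3%, and 42.2% and 42.2%. The lean was thus small or absent at that distance. Neighbours a few bases apart are covered by the same reads and are not independent. The neighbour itself passed the limit on the same strand in 15.6%, 17.5% and 13.7% of the cases at 2 to 10 bp, where 1.05%, 4.47% and 1.45% of all nearest neighbours at that distance passed.

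Runs of at least 2 consecutive members within 1000 bp on the same strand held 410 CpGs in WT, 2261 in the *Dnmt3a* KO and 501 in the *Dnmt3b* KO, which is 6.58%, 8.52% and 5.19% of the members of each table. The longest was the run of 9 CpGs near *Dock2*, a gene for an exchange factor of Rac GTPases in blood cells. Over its reads, 0.652% were methylated on the plus and 93.4% on the minus strand in WT, and 1.48% and 82.2% in *Dnmt3b* KO ESCs. In the *Dnmt3a* KO, the plus strand had 0% and the minus strand 35.6%, and 1 of the 9 CpGs reached the limit. Apart from the last CpG, the plus strand was thus nearly free of methylation in all 3 tables, and the minus strand was lowest in *Dnmt3a* KO ESCs. The mean depth was 85.2 reads on the plus and 25.3 on the minus strand in WT, and up to 10511 genome sites matched the plus strand, against 1 for the minus strand.

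**Figure D5:**
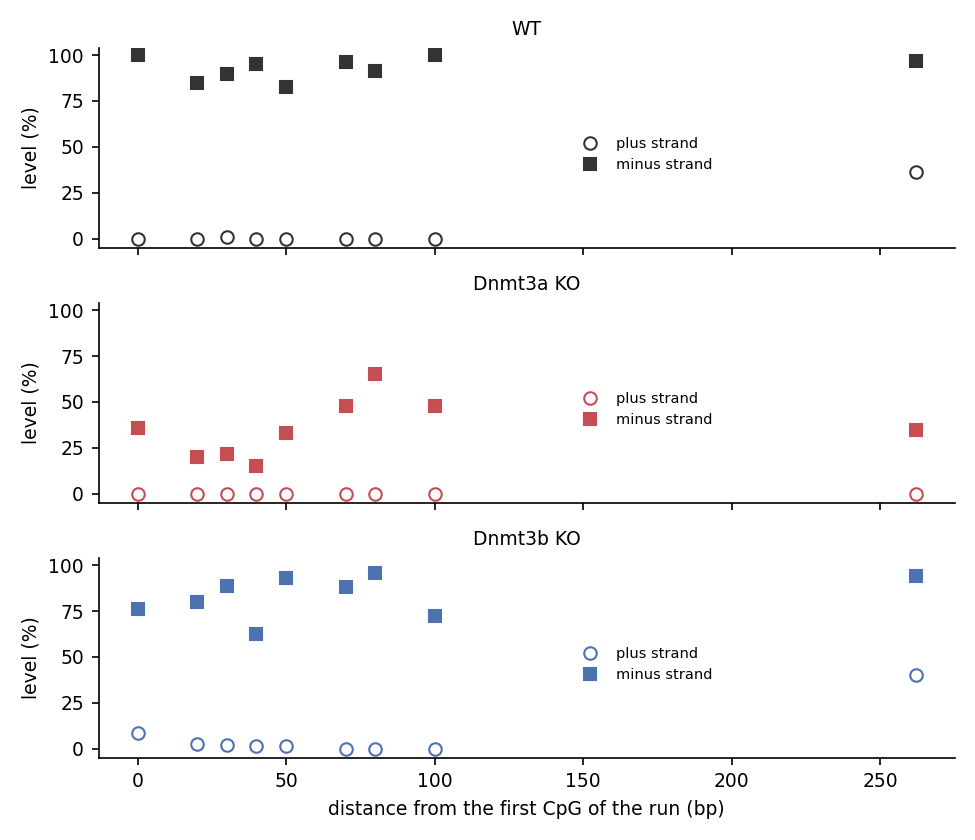
Methylation level in percent on the plus (open) and minus (filled) strand of the 9 CpGs of the run near *Dock2*, against the distance in bp from its first CpG, in the 3 tables. Plus strand levels stay at 8.33% or less except at the last CpG, and minus strand levels are 82.8% or more in WT and 15% to 65% in *Dnmt3a* KO ESCs.

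A run of 7 CpGs in an intron of *Kcnh6*, which encodes a potassium channel, had 97.2% on the plus and 38.3% on the minus strand in WT, 77.4% and 28% in the *Dnmt3a* KO and 78.6% and 55.2% in *Dnmt3b* KO ESCs. All 7 had a second matching site, with up to 483 for the plus and 220 for the minus strand, and up to 5 and 1 of them with TG. In this run the lower strand had the smaller of these maxima. The intergenic chr11 run of 6 CpGs had 18.4% on the plus and 98% on the minus strand in WT, 19% and 68% in the *Dnmt3a* KO and 24.3% and 92.7% in *Dnmt3b* KO ESCs. A second site existed for 4 of its 6 CpGs, with up to 4873 for the plus strand, 4779 of them with TG. A run of 5 CpGs at chr3:4393557-4393584 passed in *Dnmt3b* KO ESCs only, with 87.4% and 32.9%, and had 85.5% and 68.8% in WT. All 5 had a second site, with up to 68 for the plus and 184 for the minus strand, and up to 3 and 41 of them with TG. The last run, 5 CpGs in an intron of the imprinted gene *Impact*, matched no second site and had 81.2% on the plus and 24.3% on the minus strand in WT. Its direction was not the same in *Dnmt3a* KO ESCs, with 13.8% and 40.7%, and *Dnmt3b* KO ESCs had 54.4% and 45.9%. In the *Dnmt3a* KO 1 of the 5 reached the limit, with 0% and 85.7%, another had 6.25% and 50%, and the other three were within 10 points.

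The base after the CG went along with which strand was higher. On each strand the base 3′ of the G was read, and CpGs with unlike bases on their strands were compared. Between strands with G and strands with T at this place, the strand with G was higher by 0.524 points in WT, 1.78 in the *Dnmt3a* KO and 0.47 in the *Dnmt3b* KO, over 67876 CpGs. Among the members of *Dnmt3a* KO ESCs with these bases the strand with G was the higher one in 2430 of 4130, 58.8%, with a range of 52.9% to 62.4% over the 14 chromosomes. In WT it was 53.1% of 925 and in the *Dnmt3b* KO 51.8% of 1476. For this pair of bases the chromosomes of *Dnmt3a* KO ESCs were thus all on one side, while those of the other tables were on both sides. The other tables held fewer members, so their shares by chromosome vary more from counting alone. This contrast between tables was not tested.

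Between G and C the strand with G was the higher one in 58.3% of the WT, 57.3% of the *Dnmt3a* KO and 60.7% of the *Dnmt3b* KO members, with 13 of 14 chromosomes on that side in both KOs and 9 in WT. Between G and A it was 57.2%, 55.8% and 52.1%, and 49.2% in *Dnmt3b* KO ESCs among members without a second matching site. Between C and T the members were even, with 50.8%, 50% and 50.9% for the strand with C. Between A and T the strand with A was the higher one in 50.9%, 53.9% and 48.4%, and between A and C in 51.6%, 52.9% and 52.9%. In *Dnmt3a* KO ESCs 12 of 14 chromosomes were on the side of A for both pairs. The part of the level in these shares was not tested, and the mean difference over all CpGs was at most 1.78 points for every pair of bases in every table.

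Of the 326 shared CpGs 28.5% lay in protein-coding genes and 2.15% in exons, against 49.1% and 9.71% of all eligible CpGs. Of the *Dnmt3a* KO only members 53.3% were in genes and 10.7% in exons. Promoters, taken as 500 bp on both sides of a TSS, held 2.94% of the WT only, 1.35% of the *Dnmt3a* KO only and 1.92% of the *Dnmt3b* KO only members and 1 shared CpG, against 2.34% of the eligible CpGs. CpG islands held 2.65%, 0.442% and 1.03% of them, against 2.02%. On chromosome 10 lay 81 of the 326, 0.211% of its eligible CpGs, and on chromosome 19 only 2, 0.0116%.

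Within 50 bp of a match to the core motif of CTCF, the insulator protein, on either strand, lay 0.53% of the eligible CpGs. Of the WT only members 0.843% lay there, of the *Dnmt3a* KO only members 0.498%, of the *Dnmt3b* KO only members 0.798% and of the 326 shared CpGs none. A match of the letters is not a bound site. Of the 47 members that passed in WT near such a match, the strand with the motif was the higher one at 23. The coding strand of the gene was the higher one in 51.7% of the WT, 49.5% of the *Dnmt3a* KO and 51.1% of the *Dnmt3b* KO members in genes.

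Shared CpGs were spread thinly over genes. Within the gene and 2 kb on both sides, 95 of 12494 protein-coding genes had at least 1 of the 326 and 19 had 2 or more. *Sfi1*, which encodes a centrin-binding protein of the centrosome, had the most, with 4 of 47 eligible CpGs. *Pcdh15*, a protocadherin of the inner ear, had 3 of 156, and *Heatr7b1* had 3 of 216. *Ascc3*, *Gm10251*, *Gm3629*, *Il31ra*, *Myo3a*, *Prkca* and *Rsph3b* had 2 each, and were the first by symbol among the genes with 2.

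Gene lists related to methylation, counted over the same window, held members but none of the shared CpGs, which were 0.0715% of all eligible CpGs, while the lists held 83 to 738 eligible CpGs each. Over the 13 enzymes and cofactors of DNA methylation on the chromosomes analysed, 34 of 298 eligible CpGs were members, 11.4%, beside 8.79% of all eligible CpGs. *Dnmt3b* had 9 of 40, *Tet1*, which encodes an enzyme that oxidizes methylcytosine, had 5 of 57, and *Usp7*, which encodes a deubiquitinase that binds DNMT1, had 5 of 53. In the 19 imprinted genes 57 of 738 were members, 7.72%, where *Impact*, described above, is not in the list. *Trappc9* had 21 of 278, 17 of them in *Dnmt3a* KO ESCs, *Commd1* had 10 of 113 and *Airn*, the noncoding RNA of the *Igf2r* locus, 6 of 44, all in *Dnmt3a* KO ESCs. The window of *Zrsr1* lies within that of *Commd1* and had 8 of 39, which are among the 10 of *Commd1*. In the 11 germline genes 9 of 83 were members, 10.8%, with 4 of 33 at *Tdrd1*. In the 9 pluripotency regulators 19 of 130 were members, 14.6%, and *Esrrb*, a nuclear receptor of the pluripotency network, had 11 of 77. Genes with eligible CpGs and no member included *Dazl*, *Mael*, *Pou5f1* and *Meg3*, with 1, 9, 3 and 8 eligible CpGs, and *Rad21*, *Plagl1* and *Rtl1*, with 18, 15 and 13. With so few CpGs, a gene without a member says little beside the 8.79% of all eligible CpGs. The shares of the lists were not tested against the background.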

How the data were processed

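The WGBS data of J1 ESCs were analysed from 1 merged table per genotype (WT and both single KOs). Per the labels and methods, the authors aligned paired-end reads to mm9 with BSMAP at default settings (named in the submitters' processing notes), removed 3 bases at the repaired end, clonal reads and overlapping mate segments with BSeQC, and obtained methylated and total read counts per CpG and strand with MOABS; these deposited counts are not normalized. The deposited methylation fraction is methylated over total reads. It was used only to check the counts, and 0 rows failed. The incomplete last row of the WT table was left out.

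From the counts, the strand difference was the methylated share on the plus minus that on the minus strand. Python 3.11.15 with NumPy 2.4.6, SciPy 1.17.1, numba 0.67.0, pandas 2.3.3 and matplotlib 3.10.9 was used. The Fisher exact test and the hypergeometric expectation were tested on simulated data. Genes were those of the GENCODE annotation of the same build. CpG islands had at least 500 bp, 55% GC and an observed over expected ratio of 0.65. Copies were counted over both strands of the whole reference, with 50 bases around the CpG and every C as T; exact matches only were counted, and the count includes the CpG itself. No repeat annotation was used here.

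Named CpGs were the 8 with the largest minimum difference over the tables, 3 per table among those within 10 points in both other tables, and the 5 longest runs, outside UTRs and chromosome 18 except for runs. The 3 CpGs without a second site, 1 of them also among the 8, and the 4 on mixed strands were named after their values were seen, without these exclusions for the 4. Named genes were members of lists and the 10 protein-coding genes with the most shared CpGs, where ties were cut in order of symbol. The members, lists and rules were chosen with earlier results of these data known. Alternatives covered the depth limits, strand balance, thinning, the size of the difference, the test and its adjustment, weighting by reads, and sequence copies.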

Additional observations from a re-analysis of the deposited data

Results flagged for a closer look

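The 4 CpGs above the limit in all 3 tables on mixed strands were flagged because their strand difference, plus minus minus strand in percentage points, turned between genotypes. How many such CpGs unrelated tables would give was not computed, so the number 4 is a description. In an exon of *Baiap3* it was -60 in WT, -54.6 in the *Dnmt3a* KO and 59.2 in the *Dnmt3b* KO. Near *Zfp516* it was 69.2, -65 and 53.8. In an intron of *Cpeb3* it was 50, -50 and -53.8, and near *Ptprf* -50, -53.4 and 50.5. Among these differences only those near *Zfp516* in WT and the *Dnmt3a* KO had an adjusted Fisher p below 0.05, which is a description, since the same reads chose the CpGs. None of the 4 matched a second site over 50 bases. In the run of 5 CpGs in *Impact* the difference was 56.9 in WT, -26.9 in the *Dnmt3a* KO and 8.47 in the *Dnmt3b* KO. The differences between genotypes were not tested, since each genotype is 1 pool of libraries.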

How the results depend on the processing

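The counts depended on the depth limits and on the size of the difference. In the order members, members of WT, *Dnmt3a* KO and *Dnmt3b* KO, CpGs shared by all tables, percent of WT members called in *Dnmt3b* KO and in the *Dnmt3a* KO, and CpGs called in WT, *Dnmt3a* KO and *Dnmt3b* KO, a minimum of 5 reads on each strand gave 547772, 89600, 349684, 142156, 1285, 1.68%, 1.72%, 10325, 48088 and 12323, over 3538758 eligible CpGs, of which 15.5% were members. A minimum of 15 reads gave 2055, 579, 1252, 625, 105, 46.1%, 35.6%, 1568, 2269 and 1458, over 50691 CpGs with 4.05% members. Strand depths within a factor of 2 gave 25111, 3700, 16770, 5858, 114, 6.51%, 6.27%, 1699, 9197 and 2030, over 270082 CpGs with 9.3% members. Of these CpGs, 0.752% were called in the *Dnmt3b* KO and 3.41% in the *Dnmt3a* KO on either strand. Thinning to 10 reads a strand gave 76374, 12396, 50098 and 19730 members and 477 shared CpGs, and 0% and 0.0968% called in the KOs, with 0, 138 and 0 calls, since so few reads rarely pass the adjustment. A maximum of 100 reads per CpG lowered the called percents to 9.71% and 8.1%, beside 0.962% and 3.52% of all such CpGs. It lowered the shared CpGs to 264 and the calls in WT and *Dnmt3b* KO ESCs to 3639 and 4313.

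A difference of at least 0.4 gave 84515, 14235, 55154 and 22718 members, 676 shared CpGs and 6.74% and 5.99% called. At least 0.7 gave 5725, 1035, 3769, 1265, 51, 34.4% and 26.2%. Beside both stand 1.09% of all eligible CpGs called in *Dnmt3b* KO and 3.54% in *Dnmt3a* KO ESCs. Credible intervals from Beta posteriors gave 27.5% and 22.4%, with 53426, 93975 and 64768 calls, unadjusted for the number of CpGs. Of all eligible CpGs, they called 14.2% in the *Dnmt3b* KO and 20.6% in the *Dnmt3a* KO on either strand. Bonferroni adjustment gave 3.66% and 1.6%, with 442, 253 and 317 calls, beside 0.0696% and 0.0555% of all eligible CpGs. Leaving out CpGs with a second matching site was an alternative chosen after seeing the data, with p-values adjusted anew over the 356607 CpGs left. It gave 61 shared CpGs, and 3.71% and 3.67% called. The calls were 1757 in WT, 14509 in the *Dnmt3a* KO and 2846 in the *Dnmt3b* KO. These are 0.493%, 4.07% and 0.798% of all such CpGs, on either strand. Under this alternative the strand with C minus the strand with T turned to 0.0321 points in WT and 0.0595 in *Dnmt3b* KO ESCs, from -0.0753 and -0.0168. The other 16 differences by flanking base kept their sign, and all 18 did when weighted by reads.

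No paired analysis was possible because each table pools the replicates of its genotype, and leaving out a replicate was not possible for the same reason. The restriction to CpGs outside lower-case reference sequence was not run, since the reference has no lower-case bases.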
